A study of Mus musculus with 6 samples.

Results

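The expression of 10 basement membrane genes was followed in mouse embryonic stem cells that were taking on neural fate with or without knockdown of Geminin. The genes were chosen by name (Lama1, Lamb1, Lamc1, Col4a1, Col4a2, Nid1, Nid2, Hspg2, Sparc and Dag1), out of 18193 genes that had a probe set annotated to a single symbol. All 10 were found, with 23 probe sets between them, and all 10 passed the filter on low signal. They were picked with their values in these arrays already known, both between knockdown and control and between experiments. Their values in those comparisons are therefore given as a description, and the counts from the model that stand beside them support nothing about the choice.

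The cells were derivatives of the E14TG2a embryonic stem cell line, of 129P2 background, cultured for 2 days in N2B27, a serum-free medium for neural commitment. Each line carried a doxycycline (Dox) inducible hairpin in a microRNA backbone against Gmnn. This gene encodes Geminin, which restrains the licensing of replication origins and also acts on chromatin in early neural cells. Knockdown cultures (GemKD) received Dox (500 ng in the labels, with no volume), and the controls were the same line with the hairpin left uninduced. In each of 3 independent experiments 1 GemKD and 1 control culture were hybridised to Affymetrix Mouse Genome 430 2.0 arrays, 6 arrays in all. Experiments 1 and 3 used hairpin 11 and experiment 2 used hairpin 9, so hairpin 9, its line and experiment 2 cannot be told apart, and every GemKD array also had Dox.

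A basement membrane is the thin sheet of matrix on which epithelia rest, and the early epiblast needs one to become a polarised epithelium. Laminin trimers of an alpha, a beta and a gamma chain polymerise at the cell surface, held there by integrins and dystroglycan. Collagen IV forms a second, covalently linked network, and nidogens and perlecan bridge the sheets. In the early mouse embryo parietal endoderm makes very large amounts of laminin-111, collagen IV and Sparc, and the epiblast and neural epithelium make smaller amounts themselves.

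Gmnn signal in GemKD was 27.6%, 48% and 36.7% of the control in experiments 1, 2 and 3. The median signal per array ran from 59.3 to 60.9, and precision is limited by having 6 arrays. The labels call the cells neurectoderm. The neural marker Sox1 had signals of 2108 to 2443 in experiments 1 and 2 and of 523 to 577 in experiment 3. Pax6, another, had 614 to 823 and then 135 to 158. Nes, also a neural marker, was not lower, with 245 to 267 and then 264 to 283. Over all 14185 genes tested, 34% differed between experiment 3 and the mean of experiments 1 and 2 (adjusted p under 0.05 in limma), and such differences are the background of every level compared across experiments. In bulk RNA, fewer cells of a type and less RNA per cell cannot be told apart. Log2 values are of the signal plus 16, which understates changes of dim genes.

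RefSeq (GRCm38.p6) gave a promoter window for 7 of the 10 genes, and 3 stretches are shown for the genes whose levels differed most in opposite directions or moved as a pair. Col4a1 and Col4a2 lie head to head, and their annotated first bases overlap by 22 bases, shown in capitals on the plus strand, where Col4a2 is read to the right and Col4a1 to the left (chr8:11312801-11312830). For Lamb1 (chr12:31265043-31265292) and Nid1 (chr13:13437352-13437601), both on the plus strand, the 250 bases before the annotated start are shown. There the capitals mark 2 promoter motifs on either strand. The GC box is written GGGCGG on its own strand. The letters of the other, the CAAT box, are CCAAT.
Col4a1 and Col4a2: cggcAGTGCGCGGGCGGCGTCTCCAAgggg
Lamb1: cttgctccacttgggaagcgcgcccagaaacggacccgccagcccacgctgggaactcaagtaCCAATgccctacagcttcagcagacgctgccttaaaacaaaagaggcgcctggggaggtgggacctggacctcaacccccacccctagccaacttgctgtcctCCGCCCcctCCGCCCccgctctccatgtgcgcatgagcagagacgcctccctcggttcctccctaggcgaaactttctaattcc
Nid1: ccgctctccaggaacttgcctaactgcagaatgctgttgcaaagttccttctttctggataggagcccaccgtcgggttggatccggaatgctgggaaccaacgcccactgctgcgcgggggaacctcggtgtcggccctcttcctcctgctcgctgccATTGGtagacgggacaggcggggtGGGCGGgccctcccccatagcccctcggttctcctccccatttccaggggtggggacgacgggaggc

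The Lamb1 stretch held 2 GC boxes and 1 CAAT box, and the Nid1 stretch 1 of each. Of the 250 bases upstream of all 32851 annotated starts, 32.7% held a GC box and 33.8% a CAAT box, so neither is unusual, and a match is a string of letters and not a shown binding site. The share of G and C was 62% for Lamb1 and 64.4% for Nid1, between the 54% of Sparc and the 67.6% to 74.8% of the other 5 windows.

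The laminin chains come first, since they nucleate the sheet. Lama1, the alpha chain of laminin-111, had signals of 177 in control and 162 in GemKD in experiment 1, 82.3 and 94.6 in experiment 2, and 129 and 126 in experiment 3. The 3 experiments formed separate steps with no overlap, highest in experiment 1 and lowest in experiment 2, while the arms of each experiment lay close together. Lama1 rests on a single probe set, the dimmest of those that stand for the 10 genes.

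Lamb1, the beta chain, had 1408 and 1310.1 (control and GemKD) in experiment 1, 1266 and 1301 in experiment 2, and 1819.9 and 2011 in experiment 3. Both arrays of experiment 3 were above the other 4, as for 19.7% of all genes tested, and no other gene of the 10 did this. The log2 difference of experiment 3 from the mean of experiments 1 and 2 was 0.53 (SE 0.07), 1.44-fold. All 3 Lamb1 probe sets above the filter were higher in experiment 3 in both arms, by 0.53 to 0.56.

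Lamc1, the gamma chain shared by most laminins, had 1146 and 1199.6 in experiment 1, 1031 and 1238 in experiment 2, and 727 and 850.1 in experiment 3. Here both arrays of experiment 3 were below the other 4, which also held for Nid1, Nid2 and Dag1, 4 of the 10 against 31% of all genes. The log2 difference was -0.54 (SE 0.07), 1.46-fold lower. The beta and gamma chains, which enter the laminin-111 trimer together, thus differed in opposite directions in experiment 3, and Lama1 lay within the range of the other experiments (log2 difference 0.05, SE 0.13). GemKD was above its control for Lamc1 in all 3 experiments, with log2 ratios of 0.06, 0.26 and 0.22. A second, dimmer Lamc1 probe set had -0.23 for experiment 3 (control arm -0.03), so the size of that difference depends on the probe set. It also had positive ratios, of 0.04, 0.93 and 0.09. The large ratio of experiment 2 came with a low control (124 against 250.3), where the brighter probe set had 1031 against 1238.

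**Figure D1:**
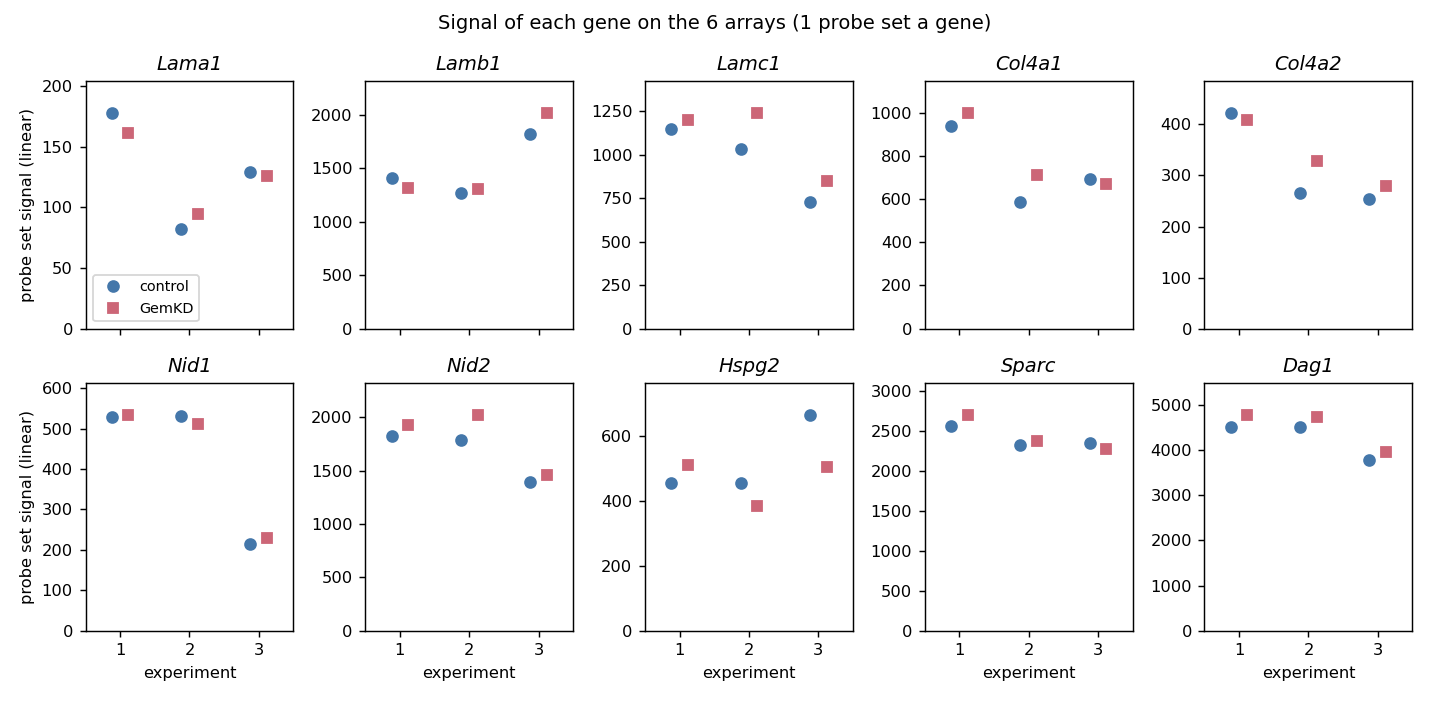
Signal of each gene (linear scale from 0) on each of the 6 arrays, by experiment, with the control array as a circle and the GemKD array as a square; each point is 1 array. Nid1, Nid2, Lamc1 and Dag1 are lower on both arrays of experiment 3, Lamb1 is higher there, and Lama1, Col4a1 and Col4a2 are highest in experiment 1.

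Collagen IV was next. Col4a1, the chain that enters the common collagen IV trimer in 2 copies, had 936 in control and 996 in GemKD in experiment 1, 587 and 713 in experiment 2, and 693 and 670.1 in experiment 3. Col4a2, the partner chain, had 422 and 409, 265 and 327, and 254 and 279. For both genes the arrays of experiment 1 were above the other 4, and those of experiments 2 and 3 lay in one range. In experiment 2 the log2 ratio of GemKD to control was 0.27 for Col4a1 and 0.29 for Col4a2, in experiment 1 it was 0.09 and -0.04, and in experiment 3 it was -0.05 and 0.12. The pair is transcribed from the common start region printed above. A second Col4a1 probe set was likewise highest in experiment 1, with ratios of 0.05, 0.30 and -0.06.

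The nidogens link the laminin and collagen networks. Nid1 had 529 in control and 533 in GemKD in experiment 1, 532 and 511 in experiment 2, and 214 and 229.9 in experiment 3. The 4 arrays of experiments 1 and 2 lay close together, and both arrays of experiment 3 were far below them. The log2 difference was -1.19 (SE 0.09), 2.28-fold lower, and 136 of the 14185 genes tested had a larger negative one. A second Nid1 probe set, with a mean signal of 118, was also lower in both arms of experiment 3, by -0.43, so the size of the difference depends on the probe set.

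Nid2 had 1823 and 1925 in experiment 1, 1791 and 2018 in experiment 2, and 1398 and 1459.5 in experiment 3, with a log2 difference of -0.40 (SE 0.06). As for Nid1, both arrays of experiment 3 were below the other 4, by a smaller step. Its GemKD array was above the control in each experiment, with log2 ratios of 0.08, 0.17 and 0.06.

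Hspg2 encodes perlecan, the heparan sulphate proteoglycan of basement membranes. Its probe set of highest mean had 454 in control and 509.6 in GemKD in experiment 1, 455 and 384 in experiment 2, and 663 and 504 in experiment 3. The experiments overlapped, and the difference of 0.36 (SE 0.11) for experiment 3 came mostly from its control array, with 0.53 in the control arm and 0.18 in the GemKD arm. A second probe set of nearly the same mean signal (474 against 495) had -0.24, with 423 and 419.5 in experiment 3 and between 480.0 and 524 elsewhere. The 2 probe sets of Hspg2 pointed in opposite directions, so no direction is given for the gene.

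Sparc, a secreted calcium-binding protein that binds collagen IV, had 2569 and 2696 in experiment 1, 2324 and 2369 in experiment 2, and 2351 and 2279 in experiment 3. Both arrays of experiment 1 were a little above the other 4, which lay close together. A second bright probe set had -0.05 for experiment 3 against -0.10 for this one, and the dimmest, at a mean signal of 34.0, had 0.35.

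Dag1 encodes dystroglycan, the laminin receptor that ties the sheet to the cytoskeleton. It had 4507 in control and 4761 in GemKD in experiment 1, 4514 and 4725 in experiment 2, and 3774 and 3942 in experiment 3. Experiments 1 and 2 were nearly the same, and both arrays of experiment 3 were below them by a log2 difference of -0.26 (SE 0.04). All 4 Dag1 probe sets were lower in both arms of experiment 3, by -0.26 to -0.47. GemKD was above control in all 3 experiments with ratios of 0.08, 0.07 and 0.06, and 3 of the 4 probe sets had that sign throughout.

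The question of the study's main comparison is which genes change when Geminin is lowered. For the 10 genes the GemKD and control arrays overlapped without exception, where 4.33% of all genes had groups that did not overlap. The median log2 fold change was 0.05, against 0.002 over all genes tested, with 9 positive and 1 negative, where 7262 of the 14185 genes were positive. It was -0.03 without the GemKD array and 0.20 without the control array of experiment 1, and -0.001 without the control array of experiment 3. Leaving out 1 array of an experiment brings differences between experiments into this fit, which has no block. With experiment 1, 2 or 3 left out as a whole, the median stayed positive, at 0.08, 0.03 and 0.06. The largest log2 fold change was that of Lamc1, at 0.18 (SE 0.20, 95% interval -0.30 to 0.66), from 968 ± 217 to 1096 ± 214 (SD, n = 3 per group). That value was -0.0078 without the control array and 0.35 without the GemKD array of experiment 3, and 0.32 without the control array of experiment 1. Without experiment 1, 2 or 3 as a whole it was 0.24, 0.14 and 0.16. The others lay between -0.15 for Hspg2 and 0.12 for Col4a2. Lama1, Sparc, Nid1 and Lamb1 were near 0, at 0.0035, 0.02, 0.02 and 0.03.

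None of the 10 passed in limma (adjusted p under 0.05), where 1 gene of 14185 did (0.00705%), and 0 had an unadjusted p under 0.05 (0.867% of all genes). With the experiment as a block 5 genes passed (0.0352%) and again 0 of the 10. At an unadjusted p under 0.05 the block gave 1 of the 10, Lamc1, against 4.76% of all genes. Its interval was 0.04 to 0.33, and those of the other 9 genes held 0. Intervals of the others with the block lay between -0.36 and 0.33, so changes of that size are within the error of these arrays. A positive ratio in all 3 experiments was found for 3 of the 10 genes (Lamc1, Nid2 and Dag1), against 12.2% of all genes, and a negative one for 0 of the 10, against 11.7%.

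**Figure D2:**
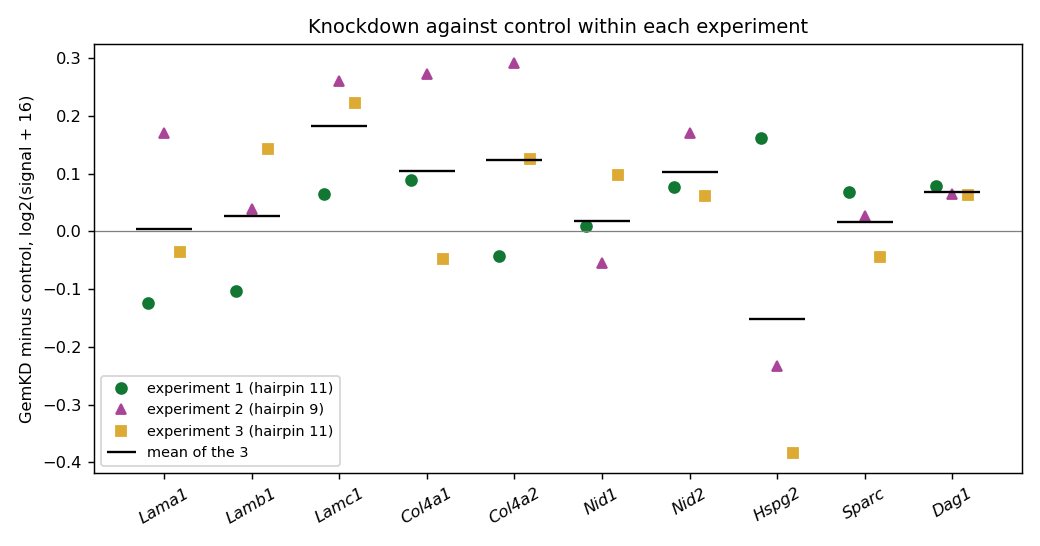
Log2 ratio of GemKD to control (signal + 16) within each experiment for the 10 genes, with experiment 1 as a circle, experiment 2 (hairpin 9) as a triangle and experiment 3 as a square; the bar is the mean of the 3. Lamc1, Nid2 and Dag1 have 3 positive ratios, and the ratios of Hspg2 run from 0.16 to -0.38.

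Whether the change depended on the hairpin could be asked only of experiment 2 against the other 2. Experiment 2 had the highest ratio of the 3 for Lama1 (0.17 against -0.12 and -0.04), Lamc1 (0.26), Col4a1 (0.27), Col4a2 (0.29) and Nid2 (0.17). The change with hairpin 9 minus that with hairpin 11 was 0.25 for each of Lama1, Col4a1 and Col4a2, with 95% intervals of -0.82 to 1.32, -0.86 to 1.36 and -1.11 to 1.61. With the experiment as a block these intervals were -0.33 to 0.83, -0.11 to 0.62 and -0.21 to 0.71. None of the 10 passed in limma without or with the block, where 0% and 0.324% of all genes did. At an unadjusted p under 0.05 the counts were again 0 of the 10, against 0.493% and 3.67% of all genes.

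Levels between experiments differed far more than those between arms. Between experiment 3 and the mean of experiments 1 and 2 the model called 2 of the 10 higher, Lamb1 and Hspg2, where 11.9% of all genes were called higher. It called 5 lower, Lamc1, Col4a2, Nid1, Nid2 and Dag1, where 22.1% were. Because these levels were part of the choice of genes, nothing is read from the counts. The call of Hspg2 was lost with the mean of its probe sets (0.06), without the control array of experiment 1 (0.24) or 3 (0.18), with no filter and with no intensity trend. That of Col4a2 was lost without the control array of experiment 1 (-0.31), without the GemKD array of experiment 2 (-0.31) and with no trend, and that of Dag1 with no trend. Col4a1 (-0.21) was called without the control array of experiment 2 (-0.27) or 3 (-0.32). The 3 genes not called were Lama1, Col4a1 and Sparc.

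The median of the 10 was -0.24, against -0.04 over all genes tested. It was -0.18 in the control arrays alone and -0.29 in the GemKD arrays alone, so both arms showed it. Within the hairpin 11 line alone, experiment 3 minus experiment 1, the median was -0.38 against -0.05 over all genes, with Col4a1 at -0.49 (SE 0.09), Col4a2 at -0.61 (SE 0.12) and Lama1 at -0.37 (SE 0.15). There the model called 8 of the 10, again only as a description, against 28.6% of all genes, and Lama1 was not among them. The difference in that line was -1.20 for Nid1 and 0.49 for Lamb1, much as against both experiments.

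**Figure D3:**
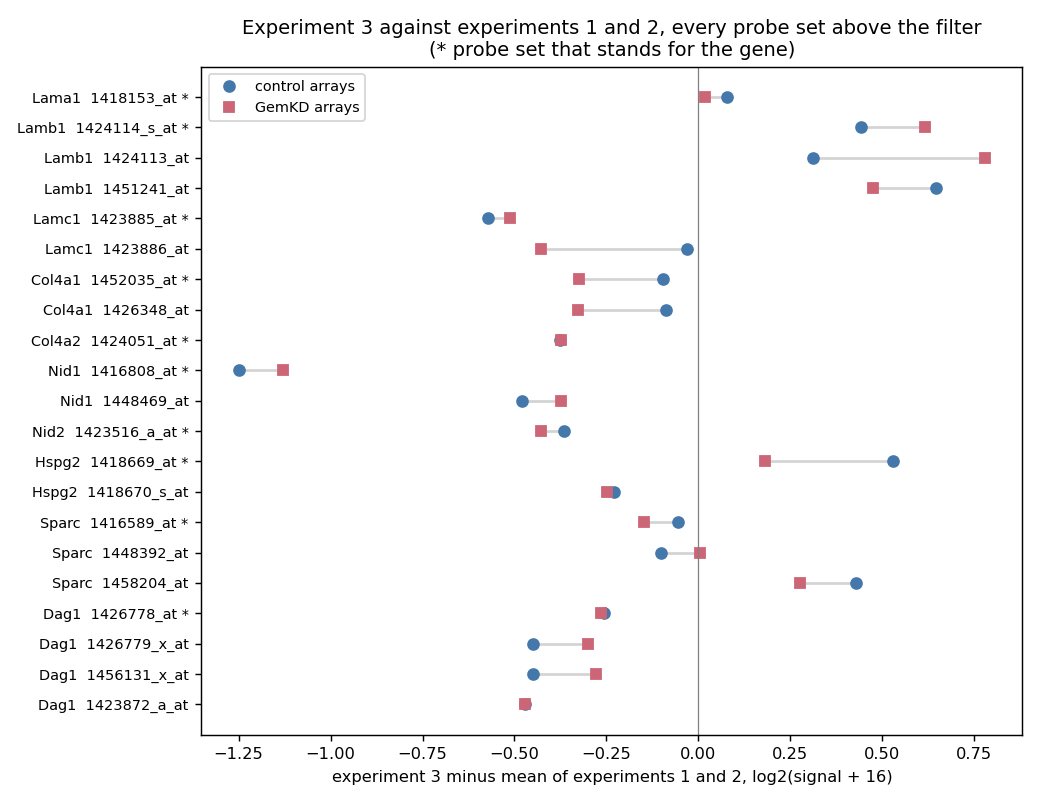
Log2 difference of experiment 3 from the mean of experiments 1 and 2 (signal + 16) for the 21 probe sets of the 10 genes above the filter, with control arrays as circles and GemKD arrays as squares; an asterisk marks the probe set that stands for its gene. All 3 Lamb1 probe sets lie above 0 and all 4 of Dag1 below it, and the 2 of Hspg2 lie on opposite sides.

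Experiments 1 and 2 differed in another set of the 10. Both arrays of experiment 2 were below both of experiment 1 for Lama1, Lamb1, Col4a1, Col4a2 and Sparc, 5 of the 10 against 18.6% of all genes, and above them for 0 of the 10 (14.6%). For Lamb1 the gap was small (1301 against 1310.1), with a log2 difference of -0.08 (SE 0.08), and another of its probe sets overlapped. The log2 difference of experiment 2 from experiment 1 was -0.83 (SE 0.15) for Lama1, 1.78-fold lower, -0.57 (SE 0.09) for Col4a1, -0.47 (SE 0.12) for Col4a2 and -0.16 (SE 0.06) for Sparc. In all, 19 of the 14185 genes had a larger negative difference than Lama1. The model called 2 of the 10 (Lama1 and Col4a1) and 0.106% of all genes, a description for the same reason as above. Nid1 (-0.02), Nid2 (0.02) and Dag1 (-0.004), which were low in experiment 3, were level between experiments 1 and 2. Lamc1 had -0.05, and -0.43 with its dimmer probe set.

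The 2 lines also differed in a gene of the Y chromosome. Eif2s3y had signals of 1391 and 1474 in experiment 2 and of 9.0 to 19.0 in experiments 1 and 3, while Uty and Kdm5d were dim on all 6 arrays, between 11.4 and 68.8. These 3 genes were looked up after the values were seen. Experiments 2 and 3 both had lower values of Lama1, Col4a1 and Col4a2 than experiment 1, and experiment 3 shares the line of experiment 1. The part of the line or of the Y-linked difference in these levels was not tested.

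In limma 0 of the markers of primitive and parietal endoderm were called between experiments 1 and 2, where 0.106% of all genes were. With so few calls over all genes, the 0 is uninformative. At an unadjusted p under 0.05 there were 4, with no share of all genes given at that cut. Of 16 tested of 18 listed, 9 were lower on both arrays of experiment 2 than on both of experiment 1 (18.6% of all genes), and 1 was higher. Their summed signal was between 2849 and 3113 in experiment 1, 2593 and 2816 in experiment 2, and 2852 and 3107 in experiment 3. Lrp2 made up 905 to 1114 of it. Fst made up 595 to 687 in experiments 1 and 2, and 844 and 868 in experiment 3. Of the defining factors, Gata6 (53.5 to 72.1) and Gata4 (42 to 62.2) had signals near the array median. Sox17 (64.2 to 116), Sox7 (89.3 to 142) and Dab2 (168 to 254) were above it. Whether these were detected was not measured. The largest log2 differences of experiment 2 from experiment 1 in this list were -0.53 for Amn and -0.50 for Pth1r. Those of Fst (0.02) and Hnf4a (0.13) had the other sign. Afp (3.3 to 24.8) and Apoa1 (1.1 to 9.8) did not pass the filter. The part of these markers' cells in the levels of Lama1 and collagen IV was not tested.

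**Figure D4:**
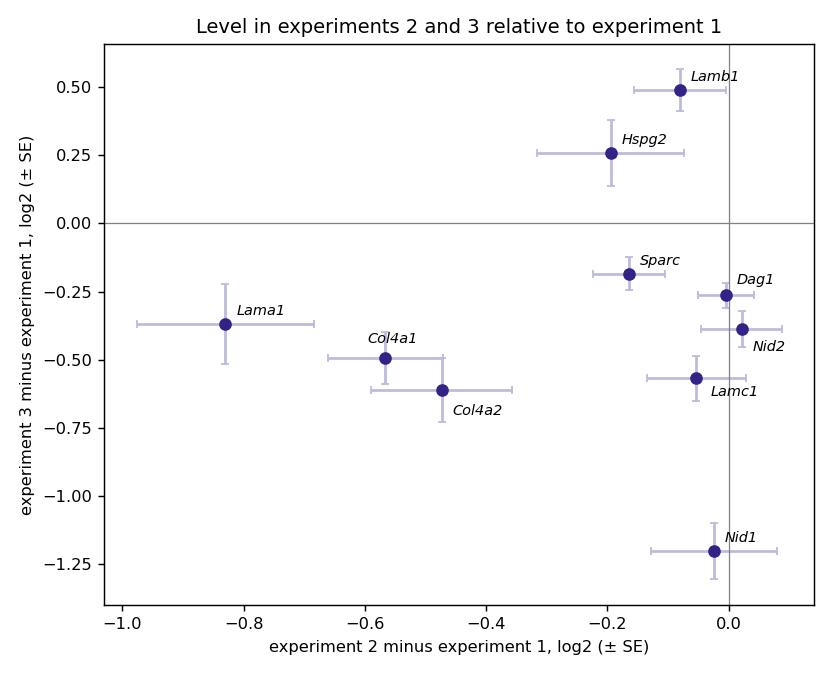
Log2 difference of experiment 2 from experiment 1 (horizontal) and of experiment 3 from experiment 1 (vertical) for the 10 genes, with bars of 1 SE from the model. Lama1, Col4a1 and Col4a2 lie to the lower left, and Lamb1 and Hspg2 lie above 0. Nid1, Nid2, Lamc1 and Dag1 lie below 0, with differences between experiments 1 and 2 within 1 SE of 0.

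Genes with the profile most like the mean of Col4a1 and Col4a2 over the 6 arrays, which are 3 pairs and not independent, were Srgn (Pearson's r = 0.996), Gm6943 (0.988), Cfap157 (0.985), Plat (0.983) and Ctsh (0.983), and 97 of 14175 genes had r above 0.9. Srgn, the proteoglycan serglycin, had 442 and 431 in experiment 1, 199 and 267 in experiment 2, and 230.2 and 232 in experiment 3. It showed the same high values in experiment 1 and the same raised GemKD value in experiment 2 as the collagen pair. Plat, the tissue plasminogen activator and one of the parietal endoderm markers above, had 90.5 and 99.5, 59.9 and 73.2, and 58.3 and 63.1. For the mean of the 3 laminin chains, which differ in direction, the closest were Gm13583 (0.994), Zbtb5 (0.980), Lmbr1l (0.980), 4933401B06Rik (0.978) and Itih5 (0.974), and 58 genes had r above 0.9.

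The rest of the pathway was taken from 6 lists that do not hold the 10 genes. Of 110 listed genes 93 were tested. Between GemKD and control 0 of them passed in limma without or with the block, with 0 and 7 at an unadjusted p under 0.05 (0.867% and 4.76% of all genes), and their median log2 fold change was 0.04. Between experiment 3 and experiments 1 and 2, 8 rose and 36 fell, 47.3% against the 34% of all genes, with a median of -0.17. In this comparison limma's adjusted p was used throughout. Experiment 3 is 1 experiment whose 2 arrays stand as replicates, so these p-values do not measure the spread between repeated experiments.

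Of 20 other basement membrane chains and components, 6 fell, 0 rose and 14 did not pass, where 22.1% of all genes were called lower and 11.9% higher. Frem2, of the Fraser complex under the epidermis, went from a mean of 295 in experiments 1 and 2 to 138 in experiment 3 (log2 -0.995, adjusted p = 3.44e-05). Lamb2, the other broadly used laminin beta chain, went from 103 to 48.3 (-0.88, adjusted p = 2.6e-04), opposite to Lamb1. Fbln1, a fibulin that binds nidogen and laminin, went from 562 to 331 (-0.73, adjusted p = 1.86e-05), and Col4a3, a collagen IV chain best known from the kidney, had 0.55 at dim signals of 20.6 to 45.3 and did not pass (adjusted p = 0.0503).

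Of 16 tested genes that process and export collagen IV, 8 fell (22.1% of all genes were called lower), 0 rose and 8 did not pass, with a median of -0.24. Serpinh1, the collagen chaperone HSP47, had 1488 and 1904 in experiment 1, 1106 and 1556 in experiment 2, and 570.3 and 573 in experiment 3. It fell by 1.35 on the log2 scale in experiment 3 (SE 0.09, adjusted p = 2.88e-08). Its GemKD array was well above the control in experiments 1 and 2 and level with it in experiment 3, and it did not pass between arms (log2 0.28, blocked adjusted p = 0.677). P4ha1, a catalytic subunit of collagen prolyl 4-hydroxylase, fell by 0.89 (adjusted p = 6.21e-08) and the lysyl hydroxylase gene Plod1 by 0.84 (adjusted p = 3.35e-04). P3h2, a prolyl 3-hydroxylase, had 0.45 and did not pass (adjusted p = 0.0664).

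Receptors and adaptors were divided, with 5 of 25 higher, 10 lower and 10 not called (median -0.14). Of all genes, 11.9% were called higher and 22.1% lower. Sdc4, the syndecan of focal adhesions, rose by 1.16 (adjusted p = 3.15e-08), from a mean of 773 to 1736. Dtna, a dystrobrevin of the dystroglycan complex, fell by 1.32 (adjusted p = 1.06e-06), from 286 to 106. Itgb4, the integrin beta chain of hemidesmosomes, fell by 0.98 (adjusted p = 4.09e-04) and Itga5, a fibronectin receptor chain, by 0.95 (adjusted p = 1.55e-04). Among the 8 tested of 12 genes that glycosylate dystroglycan, 3 fell, 1 rose and 4 did not pass, against the same shares of all genes. Pomt1 and Pomgnt2, which act early on the mannose-linked chain, had -0.61 and -0.54 (adjusted p = 3.22e-04 and 0.00224), Pomk, the kinase of that chain, had -0.36 (adjusted p = 0.0184), and Rxylt1, a xylosyltransferase, had 0.20 (adjusted p = 0.0126).

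**Figure D5:**
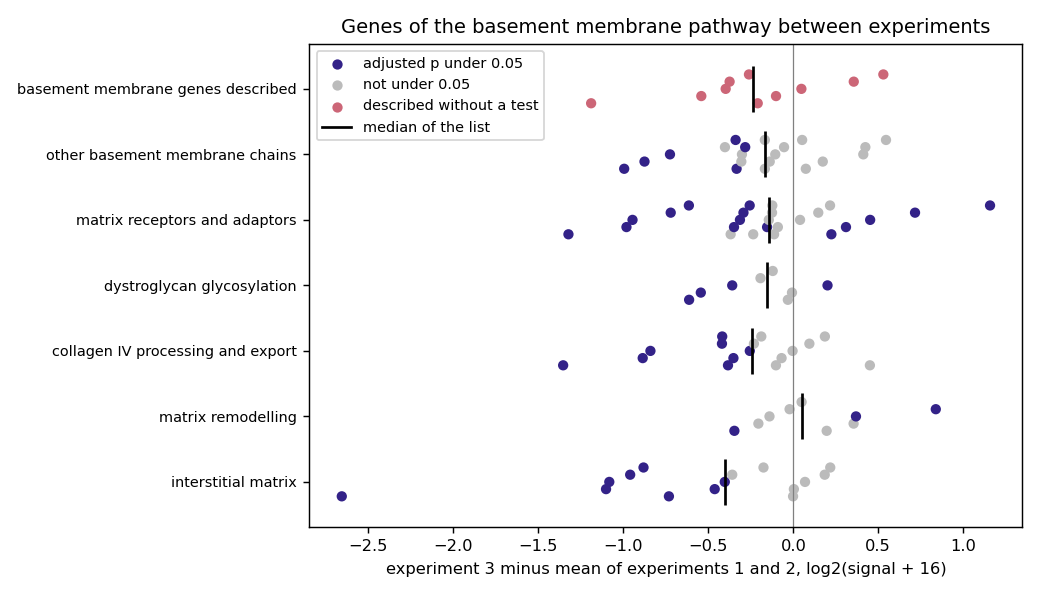
Log2 difference of experiment 3 from the mean of experiments 1 and 2 (signal + 16) for each tested gene, by list; dark points passed limma's adjusted p under 0.05, pale points did not, the red points are the 10 genes described without a test, and the line is the median of each list. Collagen IV processing genes that passed all lie below 0, and receptors lie on both sides.

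Matrix remodelling genes had 2 of 9 higher and 1 lower, where 11.9% of all genes were called higher and 22.1% lower. Timp3, an inhibitor of metalloproteinases that binds the matrix, rose by 0.84 (adjusted p = 1.13e-04) and the gelatinase gene Mmp2, whose product cuts collagen IV, by 0.37 (adjusted p = 0.00579). Mmp14, the membrane-bound activator of Mmp2, fell by 0.35 (adjusted p = 0.00853), and Adamts1 had 0.35 and did not pass (adjusted p = 0.0629). Interstitial matrix genes had 8 of 15 lower and 0 higher (median -0.40), against the same shares of all genes. Postn, periostin, fell by 2.66 (adjusted p = 2.19e-08), Tnc, tenascin C, by 1.10 (adjusted p = 9.75e-04), Col1a2 by 1.08 (adjusted p = 4.06e-07) and Fstl1, a secreted relative of Sparc, by 0.96 (adjusted p = 2.48e-08).

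Some lists of other cell type markers also differed in experiment 3. The counts called stand against 11.9% of all genes called higher and 22.1% called lower. Fibroblast markers, all 10 of which were tested, summed to between 1605 and 1762 in experiments 1 and 2 and to 870 and 984 in experiment 3. The list shares Col1a1, Col1a2, Col3a1 and Postn with the interstitial matrix genes, and these shared genes carried most of that difference. In all, 5 were called lower, the shared genes and Twist1 (-0.38), and 1 higher, Thy1 (0.66). Pdgfrb, Dcn, Lum and Prrx1 were not called. Neural progenitor markers summed to between 3297 and 3899 and to 1096 and 1216, with 3 of 5 called lower. Sox1 and Pax6 carried most of that difference, and Zic1 (-0.85) was the other one called. Nes (0.10) and the dim Hes5 (-0.26, signals of 12.4 to 34.3) were not called. Endoderm markers had 1 of 16 called higher and 1 lower. Their part in the levels of the 10 genes was not tested. Endothelial markers (3 tested of 6) summed to between 236 and 295, with Kdr between 1 and 10.4, and had 1 gene called higher (Tek) and 1 lower (Pecam1). Primitive streak and mesoderm markers (4 of 7) summed to between 609 and 782, and 0 passed in limma for experiment 3. At an unadjusted p under 0.05 there was 1, with no share of all genes given at that cut. Trophoblast markers (4 of 6), of which Tfap2c is also made by germ cells and surface ectoderm, summed to between 1030.1 and 1254 and to 382 and 491 in experiment 3. Tfap2c alone carried that difference, with 866 to 1130 and then 202 and 318, and was the 1 gene called, while the list's median was 0.15. Of pluripotency and epiblast markers, all 8 of which were tested, 3 were called higher in experiment 3 and 4 lower. Nanog (-2.61), Klf4 (-1.91) and Zfp42 (-1.19), genes of naive pluripotency, and Sox2 (-0.18) were the lower ones, and the epiblast genes Fgf5 (2.17), Otx2 (0.93) and Dnmt3b (0.19) the higher ones.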

How the data were processed

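Biotin-labelled total RNA was hybridised to Affymetrix Mouse Genome 430 2.0 arrays according to the labels. The deposited values are linear intensities for 45037 probe sets, made by the authors with software and normalization not given in the sources used. Gene symbols came from the platform annotation (34945 with 1 symbol, 932 with several, 9160 with none). Each gene was represented by its probe set of highest mean, and was tested where this exceeded 20.1, the 30th percentile over probe sets, which left 14185 genes.

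The values were compared as log2(signal + 16) with limma 3.58.1 in R 4.3.3 (lmFit, then eBayes using a trend on intensity, with two-sided p adjusted by Benjamini-Hochberg over all genes tested). GemKD and control were compared without a block. A fit blocked on experiment was the alternative. Per the labels, the arrays of 1 experiment number form an independent experiment on 1 line, so the numbers pair the arrays, and their deviations from group means correlated at 0.489, 0.472 and 0.714 within experiments 1, 2 and 3. Between experiments the correlations were -0.602 to 0.416, the positive ones (0.314 and 0.416) between experiments 1 and 2. Experiments were compared in a model with treatment and experiment, hairpins by an interaction term. The fits were tested on simulated data. The series' design names 2 lines, 1 per hairpin, so experiments 1 and 3 share a line. Between GemKD and control, p-values without the block measure the spread between these cultures. Between experiments, the GemKD and control arrays of an experiment stand as its replicates. Those p-values measure the scatter within experiments, and not the spread between repeats of an experiment.

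The 10 genes, the pathway and marker lists and the tests were chosen with earlier results of these data known. The genes named are the 10, Gmnn, up to 4 tested genes of each pathway list by size of difference between experiment 3 and experiments 1 and 2, markers of the fixed lists, and the 5 genes most like each of 2 profiles. Eif2s3y, Uty and Kdm5d were chosen after their values were seen. Promoter windows are from RefSeq.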

Additional observations from a re-analysis of the deposited data

Results flagged for a closer look

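For 2 of the 10 genes the GemKD change had one sign with hairpin 9 and the other in both experiments with hairpin 11, which held for 20.7% of all genes tested. The log2 ratio of Lama1 was 0.17 in experiment 2, against -0.12 in experiment 1 and -0.04 in experiment 3. That of Nid1 was -0.06, against 0.01 and 0.10. The difference in sign is a description, and the interaction of hairpin and knockdown was not called for either gene.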

How the results depend on the processing

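Between GemKD and control the count of 1 gene called became 0 with no intensity trend, 5 with the replicate block and 0 to 3 as arrays or experiments were left out, being 3 without experiment 3 and 0 without experiment 1, experiment 2 or any array but the control of experiment 2. The median of the 10 genes, 0.05, became 0.10 with the mean of all probe sets and -0.03 to 0.20 with arrays or experiments left out, being -0.0343 without the GemKD array and 0.20 without the control array of experiment 1, 0.01 without the control array of experiment 2, 0.19 without the GemKD array and -0.001 without the control array of experiment 3, and 0.08 without experiment 1. The hairpin interaction went from 0 to 46 genes with the replicate block, none of them among the 10. Between experiment 3 and experiments 1 and 2, 4822 genes became 3031 with no intensity trend and 4143 to 4237 with arrays left out. Medians here and below are of the 10 genes, and that of -0.24 was -0.29 to -0.18 with arrays left out. Between experiments 3 and 1, added after seeing the data, 4051 became 2060 with no trend and 2499 to 4101 with arrays left out (2565 and 2499 without the GemKD or control array of experiment 1), and the median of -0.38 became -0.34 with quantile normalization, -0.33 with a pseudocount of 64 and -0.43 to -0.32 with arrays left out. Between experiments 2 and 1, also added, 15 became 7 with quantile normalization, 2 with no filter, 9 with the mean of probe sets, 1 with no trend and 21 to 114 with arrays left out (66 without GemKD 1, 26 without control 1, 114 without GemKD 2, 25 without GemKD 3 and 28 without control 3), and the median of -0.12 became -0.16 with the mean of probe sets. As said above, leaving out 1 array brings differences between experiments into the fit of GemKD against control, which has no block. Other causes of these shifts were not tested. Comparisons between experiments already held the experiment as a term, so a replicate block was not a separate setting for them. Arrays without a deposited detection call limit what can be said of dim probe sets.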
